A study of Mus musculus with 6 samples.

Results

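The Serpina1 and Serpina3 protease inhibitors of the mouse were followed in isolated hepatocytes before and 48 hours after partial hepatectomy (PHx). The 10 genes described are Serpina1a, Serpina1b, Serpina1c, Serpina1d and Serpina1e, then Serpina3c, Serpina3k, Serpina3m and Serpina3n, and finally Serpina6. They were chosen by name and matched by versioned Ensembl identifier to GENCODE M21, and all 10 were found among the 55450 genes in the count files. Measured values played no part in the matching. In all 6 bulk RNA-Seq libraries the RNA came from hepatocytes of C57BL/6 mice, aged 10 to 12 weeks according to the labels, isolated by perfusing the liver with collagenase in a pair of steps. The study's methods name the strain as C57BL/6J, add that the mice were male and give a slightly younger age at surgery. No transgene, deletion or drug is named for either group. The 3 libraries at 0 hours came from undamaged liver, and the other 3 came from liver 48 hours after PHx, an operation that takes out the larger part of the organ. Each library was a separate hepatocyte preparation. The 0-hour animals are not described as sham operated, so the effects of anesthesia and surgery cannot be told apart from those of losing liver mass. Gene counts ranged from 31419443 to 36346220 per library.

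Serpins are suicide inhibitors. A protease cleaves an exposed loop near the C-terminal end of the serpin, the reactive center loop, and is then trapped in an inactive complex, so the sequence of the loop decides which proteases are bound. In humans a single SERPINA1 gene encodes α1-antitrypsin, the main plasma inhibitor of neutrophil elastase, and a single SERPINA3 gene encodes α1-antichymotrypsin, an acute-phase inhibitor of chymotrypsin-like proteases. In the mouse both genes have multiplied into clusters of close paralogs, and hepatocytes secrete most of the products into plasma. Serpina6 is the neighboring gene for corticosteroid-binding globulin, a serpin that carries glucocorticoids and does not inhibit proteases.

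The 10 genes lie on chromosome 12 (GRCm38), within 767.7 kb from position 103646630 to 104414329. Serpina6 is on the minus strand at chr12:103646630-103657212. The Serpina1 genes follow on the same strand, with Serpina1b at chr12:103728156-103830373, Serpina1d at chr12:103763594-103773592, Serpina1a at chr12:103853589-103863562, Serpina1c at chr12:103894926-103904887 and Serpina1e at chr12:103946931-103958975. Serpina3c, at chr12:104146382-104153870, is also on the minus strand. The other Serpina3 members are on the plus strand, with Serpina3k at chr12:104338486-104346144, Serpina3m at chr12:104338486-104394257 and Serpina3n at chr12:104406729-104414329. Serpina3k and Serpina3m have the same annotated start and share 60 exon bases. Serpina1d lies inside the annotated span of Serpina1b without sharing an exon base with it.

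How far the paralogs can be told apart by sequence bears on every value that follows. The coding sequences of the 5 Serpina1 genes were 96.3% to 98.5% identical to each other, with Serpina1a and Serpina1c the closest pair. The 4 Serpina3 genes were less alike, from 82.9% between Serpina3k and Serpina3n to 91.7% between Serpina3k and Serpina3m. The differences among the Serpina1 genes were not spread evenly. In their aligned coding sequences 6.94% of positions varied, and the most divergent stretch of 60 bases without a gap held 18 variable positions, which is 30.0% of it, against a median of 4 per stretch. It lies near the 3′ end of the coding sequence, at coding bases 1101 to 1160 (1170 to 1229 in Serpina1a, whose annotated coding sequence is longer), in the part that encodes the reactive center loop. The 5 stretches are shown because they are where the aligned coding sequences of these genes differ most. Capitals mark the positions at which the 5 genes do not all share a base.
Serpina1a: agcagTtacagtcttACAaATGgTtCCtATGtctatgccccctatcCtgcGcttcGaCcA
Serpina1b: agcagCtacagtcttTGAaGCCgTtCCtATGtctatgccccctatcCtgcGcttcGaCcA
Serpina1c: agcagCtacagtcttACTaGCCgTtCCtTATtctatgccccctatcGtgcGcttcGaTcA
Serpina1d: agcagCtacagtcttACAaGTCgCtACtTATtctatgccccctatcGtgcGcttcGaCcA
Serpina1e: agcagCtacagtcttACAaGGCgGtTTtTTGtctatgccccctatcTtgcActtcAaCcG

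Among the Serpina3 genes 23.1% of coding positions varied, and their most divergent stretch of 60 bases held 27 variable positions, or 45.0%. It is shown for the same reason, at coding bases 1154 to 1213 of Serpina3c and 1163 to 1222 of the other members, with capitals marking positions that vary among the 4 genes.
Serpina3c: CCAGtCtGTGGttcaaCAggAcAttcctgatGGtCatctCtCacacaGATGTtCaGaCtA
Serpina3k: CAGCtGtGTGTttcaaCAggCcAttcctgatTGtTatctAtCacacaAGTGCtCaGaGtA
Serpina3m: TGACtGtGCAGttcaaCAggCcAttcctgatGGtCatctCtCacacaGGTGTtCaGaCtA
Serpina3n: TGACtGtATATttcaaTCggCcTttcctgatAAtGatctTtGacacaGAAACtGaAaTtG

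The count files list 0 reads that aligned to several places, so reads from stretches identical between paralogs were removed, assigned or not reported before counting. To show how much of each gene this touches, its transcripts were divided into all overlapping words of 50 bases, and words found in no other annotated gene were counted. Such words made up 20.7% of Serpina1c and 42.4% of Serpina1a, and 69.4% of the words of Serpina1c also occurred in Serpina1a. They made up 49.1% of Serpina1d, 65.4% of Serpina1e and 70.5% of Serpina1b. In the Serpina3 genes the share was higher, at 80.9% for Serpina3m, 86.0% for Serpina3k, 93.1% for Serpina3n and 95.7% for Serpina3c, and every word of Serpina6 was its own. With words of 100 bases the share rose to 30.7% for Serpina1c and to 99.8% for Serpina3n. Single-gene values of the Serpina1 genes, Serpina1c above all, are therefore uncertain, and sums over the paralogs are given beside them, although reads removed before counting are missing from the sums too. Reads shared with the annotated pseudogene Gm8893 could have been split in the same way.

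Levels are given as CPM, the counts of a gene relative to its library's total, with TMM normalization, which scales the libraries so that most genes do not differ. Differences were tested with edgeR's quasi-likelihood test over the 17037 genes with enough counts, and a gene was called higher or lower where the Benjamini-Hochberg adjusted p over all of them was under 0.05. All 10 genes passed the count filter. At 48 hours after PHx, 2 of the 10 were higher (Serpina3m and Serpina3n) and 5 were lower (Serpina1c, Serpina1d, Serpina1e, Serpina3k and Serpina6), while Serpina1a, Serpina1b and Serpina3c were not called. Among all tested genes 21.4% were called higher and 19.3% lower, 40.7% in all. The median log2 fold change was -0.56 over the 10 genes and -0.0033 over all genes. In 9 of the 10 genes the TMM-normalized CPM of the time points did not overlap, as in 52.7% of all tested genes. As shares of all gene counts, without TMM, the time points of Serpina1a and Serpina1b did overlap. Because these are bulk samples scaled to a common total, fewer cells expressing a gene and less RNA of it per cell cannot be told apart.

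**Figure D1:**
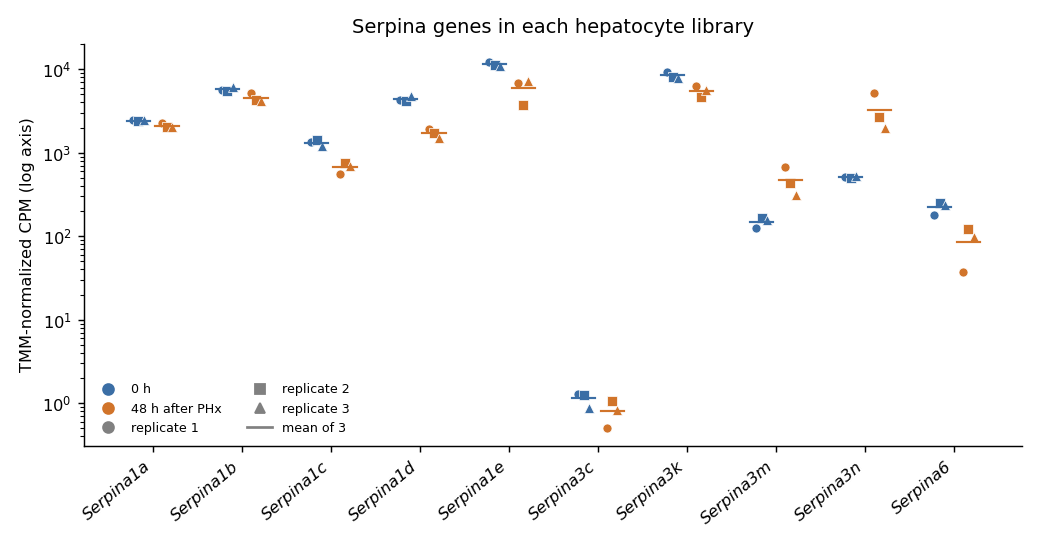
TMM-normalized CPM (log axis) of the 10 Serpina genes, with 3 libraries at 0 hours in blue, 3 at 48 hours after PHx in orange, marker shape for the replicate and a line at each mean. Serpina3m and Serpina3n lie higher in every 48-hour library, whereas Serpina3c is the only gene of the 10 whose time points overlap.

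Serpina1e, an α1-antitrypsin paralog, was the most abundant of the 10 genes and ranked 7 among all genes by mean CPM. Its level was 12128, 11217 and 10879 CPM in the 3 libraries at 0 hours and 6839, 3720 and 7290 CPM in those at 48 hours. Every 48-hour library was below every 0-hour library, and the 48-hour libraries spread 1.96-fold against 1.11-fold at 0 hours. The mean fell from 11408 ± 646 to 5950 ± 1944 CPM (SD, n = 3), a log2 fold change of -0.94 ± 0.25 (SE; edgeR adjusted p = 0.0115).

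Serpina1d showed the largest decrease of the Serpina1 genes. It was at 4340, 4194 and 4804 CPM at 0 hours and at 1932, 1735 and 1502 CPM at 48 hours, with no overlap and little spread within either time point. The mean level was 2.58-fold lower after PHx, with a log2 fold change of -1.37 ± 0.16 (SE; edgeR adjusted p = 9.79e-05). In 15 alternative fits its log2 fold change stayed between -1.46 and -1.17.

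Serpina1c had the lowest CPM of the 5, a rank that depended on how shared sequence was treated. Per 1000 words of 50 bases unique to a gene, Serpina1a was lower at 0 hours, at 3103 against 4853 CPM for Serpina1c. At 48 hours Serpina1c was lowest on that measure too, at 2449 against 2687 CPM for Serpina1a. The libraries of Serpina1c held 1346, 1411 and 1203 CPM at 0 hours and 552, 760 and 686 CPM at 48 hours, and the time points did not overlap. The log2 fold change was -0.99 ± 0.16 (SE; edgeR adjusted p = 6.69e-04). Its exons overlap B430119L08Rik on the opposite strand over 429 bases, 31.5% of its exon length, and whether reads were counted by strand is not given in the sources used here. B430119L08Rik, looked up after the values of Serpina1c were seen, had 1996, 2022 and 1679 counts at 0 hours and 417, 770 and 869 counts at 48 hours, with a log2 fold change of -1.64 ± 0.22 (SE; edgeR adjusted p = 2.36e-04). It was lowest in replicate 1 of the 48-hour libraries, as Serpina1c was. Without strand, reads of these genes cannot be told apart in the shared bases.

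Serpina1a and Serpina1b, the other α1-antitrypsin paralogs, did not pass the test. Serpina1a was at 2456, 2374 and 2449 CPM at 0 hours and 2262, 2027 and 2015 CPM at 48 hours. The libraries did not overlap on this scale, but the log2 fold change of -0.21 ± 0.14 (SE) had an edgeR adjusted p of 0.265. As a share of all gene counts, without TMM, Serpina1a did overlap, at 0.2237% to 0.2296% at 0 hours and 0.2221% to 0.2302% at 48 hours. Serpina1b was at 5631, 5565 and 6094 CPM at 0 hours and 5181, 4273 and 4210 CPM at 48 hours, again without overlap on this scale. Its shares of all gene counts overlapped, at 0.5265% to 0.5568% at 0 hours and 0.4653% to 0.5273% at 48 hours. Its log2 fold change was -0.34 ± 0.16 (SE; edgeR adjusted p = 0.119), and it passed the threshold with DESeq2 (adjusted p = 0.0261) and without replicate 1 of the 48-hour libraries (edgeR adjusted p = 0.0423).

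Summed over the 5 paralogs, the Serpina1 level was 25902, 24760 and 25428 CPM at 0 hours. At 48 hours it was 16767, 12514 and 15702 CPM, below every 0-hour library. The mean fell from 25363 ± 573 to 14994 ± 2213 CPM (SD, n = 3), a log2 ratio of -0.76. Without any normalization beyond library size the log2 ratio was -0.56. The 5 genes together took 2.37% ± 0.0508 of all gene counts at 0 hours and 1.60% ± 0.202 at 48 hours (SD, n = 3).

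The makeup of the Serpina1 sum also shifted. Serpina1a rose in share from 9.57% ± 0.0762 to 14.2% ± 1.78 of the sum and Serpina1b from 22.7% ± 1.13 to 30.6% ± 3.67, while Serpina1d went from 17.5% ± 1.18 to 11.6% ± 2.15 (SD, n = 3), each without overlap between the time points. The shares of Serpina1c and Serpina1e overlapped between the time points, and Serpina1e ranged from 29.7% to 46.4% of the sum at 48 hours. The log2 ratio of Serpina1d to Serpina1a within a library was 0.82, 0.82 and 0.97 at 0 hours and -0.23, -0.22 and -0.42 at 48 hours. Serpina1d thus had more counts than Serpina1a in every 0-hour library and fewer in every 48-hour library, a difference of -1.16 in the log2 ratio. The ratio to Serpina1a also differed by -0.79 for both Serpina1c and Serpina1e and by -0.14 for Serpina1b. Taken to the other 4 paralogs summed instead, the differences were -0.24 for Serpina1c, -0.37 for Serpina1e (exact permutation p = 0.5 and 0.3, two-sided), -0.70 for Serpina1d and 0.58 for Serpina1b. Each of the 4 differences in the ratio to Serpina1a had an exact permutation p of 0.1 (two-sided), which is the smallest that 3 libraries against 3 can give, and 0.117 after adjustment over the 7 ratios tested in both subfamilies.

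**Figure D2:**
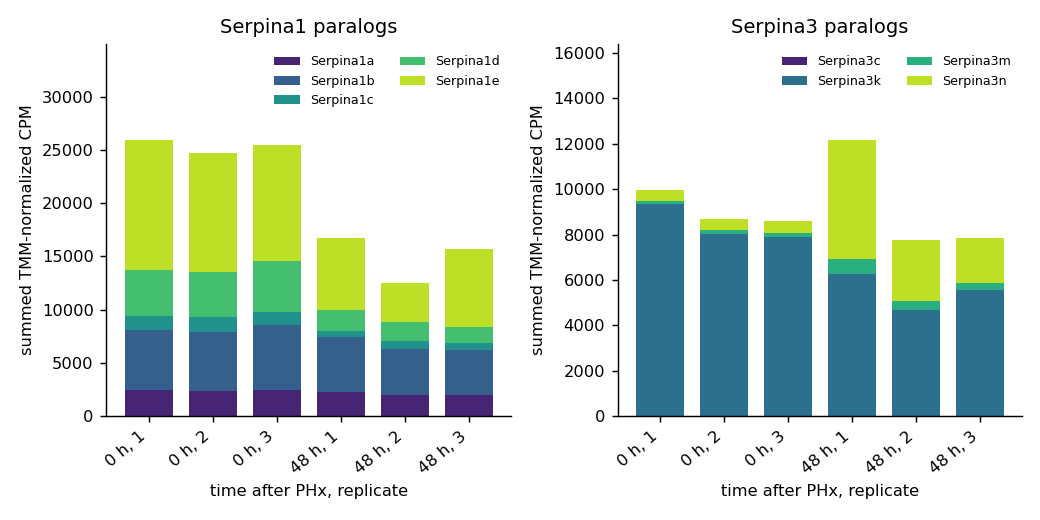
Stacked TMM-normalized CPM of the Serpina1 paralogs (left) and the Serpina3 paralogs (right) in each of the 6 libraries, with axes starting at 0. The Serpina1 bars are lower in all 3 libraries at 48 hours after PHx, whereas the Serpina3 bars overlap in height and Serpina3n takes 25.2% to 42.9% of them at 48 hours against 5.07% to 6.18% at 0 hours.

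Serpina3n encodes the mouse inhibitor usually taken as the counterpart of acute-phase α1-antichymotrypsin, and it changed most of the 10 genes. It was at 507, 498 and 532 CPM at 0 hours, a spread of 1.07-fold. At 48 hours it was at 5213, 2649 and 1981 CPM, a spread of 2.63-fold, and every value was above those at 0 hours. The mean went from 512 ± 17.6 to 3281 ± 1706 CPM (SD, n = 3). The level was 6.40-fold higher after PHx, with a log2 fold change of 2.68 ± 0.31 (SE; edgeR adjusted p = 9.23e-05). Without replicate 1, the highest of the 48-hour libraries, the log2 fold change was 2.17 (edgeR adjusted p = 5.19e-06).

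Serpina3m, the closest paralog of Serpina3k, moved the same way from a lower level. It was at 126, 165 and 156 CPM at 0 hours and at 673, 438 and 309 CPM at 48 hours, with no overlap. As for Serpina3n, replicate 1 was the highest 48-hour library and replicate 3 the lowest. The log2 fold change was 1.67 ± 0.25 (SE; edgeR adjusted p = 4.38e-04).

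Serpina3k, the most abundant Serpina3 gene and an inhibitor also known as kallikrein-binding protein, moved the opposite way. It was at 9351, 8042 and 7914 CPM at 0 hours and at 6264, 4655 and 5578 CPM at 48 hours, without overlap. The log2 fold change was -0.62 ± 0.18 (SE; edgeR adjusted p = 0.0182). The call was lost without replicate 1 of the 0-hour libraries (edgeR adjusted p = 0.0712), without replicate 2 of the 48-hour libraries (0.0888) and with scaling by library size alone (0.0718). Serpina3c was near the count filter, with 38, 39 and 29 counts at 0 hours and 17, 38 and 29 counts at 48 hours. Its libraries overlapped, and its log2 fold change was -0.51 ± 0.32 (SE; edgeR adjusted p = 0.241).

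The Serpina3 sum hid these opposite movements. It was 9985, 8706 and 8604 CPM at 0 hours and 12150, 7743 and 7869 CPM at 48 hours, so that a single 48-hour library lay above the 0-hour libraries and the others below them. The means were 9098 ± 770 and 9254 ± 2509 CPM (SD, n = 3), a log2 ratio of 0.02, and without replicate 1 of the 48-hour libraries the log2 ratio was -0.22. Serpina3k took 92.7% ± 0.871 of the sum at 0 hours and 60.9% ± 9.69 at 48 hours (SD, n = 3). Serpina3n took 5.66% ± 0.558 and 34.1% ± 8.87, and Serpina3m 1.66% ± 0.345 and 5.04% ± 0.969. The log2 ratio of Serpina3n to Serpina3k was -4.21, -4.01 and -3.89 at 0 hours and -0.26, -0.81 and -1.49 at 48 hours. That difference of 3.18, and the one of 2.23 for Serpina3m to Serpina3k, each had the smallest exact permutation p possible (two-sided, 0.1; 0.117 adjusted over 7 ratios). For Serpina3c to Serpina3k the difference was 0.07 (exact permutation p = 0.9, two-sided).

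Serpina6, the corticosteroid-binding globulin gene, was lower after PHx. It was at 178, 253 and 236 CPM at 0 hours and at 37.2, 121 and 97.6 CPM at 48 hours. The time points did not overlap, although the 48-hour libraries spread 3.25-fold with replicate 1 the lowest. The log2 fold change was -1.38 ± 0.34 (SE; edgeR adjusted p = 0.00825), and it was -1.03 without replicate 1 of the 48-hour libraries (edgeR adjusted p = 0.00160).

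Replicate 1 of the 48-hour libraries thus had the highest Serpina3n, Serpina3m, Serpina3k, Serpina1a, Serpina1b and Serpina1d and the lowest Serpina6, Serpina1c and Serpina3c of its time point. The summed level of 10 hepatocyte markers was also highest there, at 99821 CPM against 76469 and 75113 CPM in the other two. Over the 0-hour libraries that sum ranged from 106444 to 125113 CPM. Of these markers 2 were called higher, the fibrinogen genes Fga and Fgb, which are also acute-phase genes, and 3 were called lower, namely Alb, Apoa1 and Ttr. The shares over all tested genes were 21.4% higher and 19.3% lower. Fga was at 15463, 7928 and 6778 CPM in the 48-hour libraries and Fgb at 12524, 7731 and 6347 CPM, so the sum is not a measure of hepatocyte content alone. With this replicate left out, 2 of the 10 genes were still called higher and 6 lower.

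Per kilobase of exon, a scale that allows for gene length but not for shared sequence, Serpina1e led at 0 hours with 7055 ± 400 CPM per kb (SD, n = 3). Serpina3k followed at 4101 ± 387, Serpina1d at 3189 ± 228, Serpina1b at 2387 ± 119, Serpina1a at 1324 ± 24.7 and Serpina1c at 970 ± 78.4 CPM per kb. Serpina3n (248 ± 8.52), Serpina6 (126 ± 22.2) and Serpina3m (86.8 ± 11.9) were lower, and Serpina3c was last at 0.516 ± 0.105 CPM per kb. Neighbors in this order were separated by more than their SDs. At 48 hours Serpina1e (3679 ± 1202), Serpina3k (2673 ± 392), Serpina1b (1886 ± 225) and Serpina3n (1590 ± 827 CPM per kb) came first, ahead of Serpina1d (1236 ± 155) and Serpina1a (1147 ± 76.2). Serpina1c (489 ± 77.4), Serpina3m (275 ± 107), Serpina6 (48.4 ± 24.5) and Serpina3c (0.361 ± 0.127 CPM per kb) followed. Neighbors among the first 6 lay within the larger SD of the pair, apart from Serpina3k and Serpina1b. The order of the Serpina1 genes, and their place beside Serpina3k, depended on how shared sequence was treated. Per 1000 words of 50 bases unique to a gene, a measure chosen after seeing the data, the 0-hour order was Serpina1e, Serpina1d, Serpina1c, Serpina1b and Serpina1a, at 11130, 6736, 4853, 3575 and 3103 CPM. Serpina3k was at 4887 CPM on this measure, below Serpina1d and close to Serpina1c.

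Position in the cluster was set beside direction of change. From Serpina6 to Serpina3k, each of the 8 genes in between and at the ends had a fitted log2 fold change below 0. The genes with increases, Serpina3m and Serpina3n, have the rightmost midpoints of the 10. Among 15 other clade A serpin genes, 7 passed the count filter, of which 4 were called lower (2 with scaling by library size alone) and 1 higher. The shares over all tested genes were 19.3% lower and 21.4% higher. Serpina10, the gene for the protein Z-dependent inhibitor of clotting factor X, lies next to Serpina6 on its other side and was called higher, at 156, 140 and 147 CPM at 0 hours and 376, 275 and 250 CPM at 48 hours (log2 fold change 1.02 ± 0.16, SE; edgeR adjusted p = 5.61e-04). Serpina12, which encodes vaspin, was called lower (log2 fold change -2.12 ± 0.51, SE; edgeR adjusted p = 0.00752), with a log2 fold change of -3.08 without replicate 3 of the 48-hour libraries. Serpina3f fell from 1.51 to 1.93 CPM at 0 hours to between 0.457 and 0.802 CPM at 48 hours, and its log2 fold change was -1.46 ± 0.28 (SE; edgeR adjusted p = 0.00208). Serpina7, for thyroxine-binding globulin, lies outside the cluster and was not called (log2 fold change 0.35 ± 0.32, SE).

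**Figure D3:**
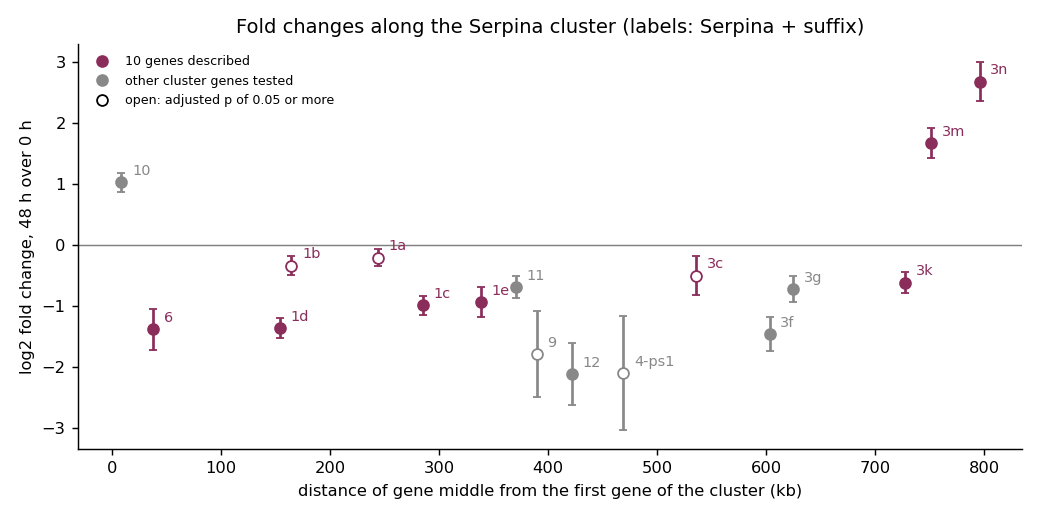
Log2 fold change from 0 to 48 hours after PHx (points, with SE bars) of the tested Serpina genes of the chromosome 12 cluster against the distance of each gene's middle from the start of the cluster in kb, with open points for genes not called. Serpina3m and Serpina3n, at the right end, lie at 1.67 and 2.68, and Serpina10 at the left end lies at 1.02.

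The start regions were searched for 3 short motifs on both strands, using the RefSeq promoter windows of GRCm38.p6, which run from 250 bases before to 50 after a gene's start. Windows were matched for 7 of the 10 genes, all but Serpina3k, Serpina3m and Serpina6. The motifs were a STAT motif (TTCNNNGAA, in 8.30% of 32851 promoters), a C/EBP motif (TTGCNNAA, in 10.8%) and a TATA box (TATAAA, in 13.6%). The C/EBP motif occurred in 4 of the 5 Serpina1 windows. It lay 161, 149 and 211 bases before the start in Serpina1b, Serpina1d and Serpina1e, but 24 bases after it in Serpina1a. The windows of these paralogs are similar in sequence, so the matches are not independent of each other. The TATA box occurred in the window of Serpina3c. No motif was matched in the windows of Serpina1c and Serpina3n, which says only that these letters are not in them. The windows of the genes with the largest decrease and the largest increase among the 7 are shown, with the C/EBP motif in capitals. That of Serpina1d is chr12:103773584-103773883 on the minus strand, with the motif 149 bases before the start, and that of Serpina3n is chr12:104406458-104406757 on the plus strand.
Serpina1d: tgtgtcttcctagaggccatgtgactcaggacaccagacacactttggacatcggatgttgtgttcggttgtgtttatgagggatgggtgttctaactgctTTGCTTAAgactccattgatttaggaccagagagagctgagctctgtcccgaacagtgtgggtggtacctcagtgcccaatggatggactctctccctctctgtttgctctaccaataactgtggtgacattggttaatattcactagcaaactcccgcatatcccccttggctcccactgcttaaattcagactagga
Serpina3n: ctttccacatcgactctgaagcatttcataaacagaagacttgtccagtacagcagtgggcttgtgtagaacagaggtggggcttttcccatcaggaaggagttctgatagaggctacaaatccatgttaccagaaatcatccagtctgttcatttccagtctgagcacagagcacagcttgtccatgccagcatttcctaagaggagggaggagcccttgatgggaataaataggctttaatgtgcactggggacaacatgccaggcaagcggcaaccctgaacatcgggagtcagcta

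The other secreted protease inhibitors of hepatocytes were mixed in direction. Of 28 listed, 25 were tested, 6 were called higher and 10 lower, with a median log2 fold change of -0.10. Among all tested genes 21.4% were called higher and 19.3% lower, so the higher calls of the list were near the share over all genes. The abundant plasma proteins Ahsg (fetuin-A) and Pzp (pregnancy zone protein) were not called, with log2 fold changes of 0.18 and 0.17. Mug2, for the broad protease inhibitor murinoglobulin 2, fell from 1108 to 214 CPM (log2 fold change -2.37 ± 0.19, SE; edgeR adjusted p = 6.53e-06), although its reads could be shared with the near-identical Mug1.

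Of 11 serine proteases of leukocytes, plasma and liver, 6 were tested, 5 were called lower (3 with scaling by library size alone) and 1 higher. Over all tested genes the shares were 19.3% lower and 21.4% higher. Klkb1, for plasma prekallikrein, was at a mean of 162 CPM at 0 hours and 43.7 CPM at 48 hours (log2 fold change -1.89 ± 0.22, SE; edgeR adjusted p = 8.56e-05), but Gm45753 overlaps 43.2% of its exon bases on the same strand. Tmprss6, a membrane protease that restrains hepcidin expression, fell from 581 to 246 CPM (log2 fold change -1.24 ± 0.12, SE; edgeR adjusted p = 2.40e-05). Prtn3, which encodes proteinase 3, a neutrophil protease bound by α1-antitrypsin, was the gene called higher. With any 48-hour library left out it missed the count filter and was not tested. It had 2, 2 and 5 counts at 0 hours and 697, 519 and 309 counts at 48 hours, or 8.82 to 20.7 CPM, and Plppr3 overlaps 9.18% of its exon bases on the opposite strand. The summed level of 9 neutrophil markers was 1.06 to 1.08 CPM at 0 hours and 0.624 to 1.26 CPM at 48 hours, with Mpo, Ltf and Retnlg at 0 in every library.

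Several pathways known to act on these genes in liver were described by lists of their members. IL-6 family cytokines signal through gp130 and STAT3 to induce acute-phase genes, of which Serpina3n is a known example. Of 13 genes listed for that signaling, 8 were called higher and 1 lower, with a median log2 fold change of 0.70. Over all tested genes the shares were 21.4% higher and 19.3% lower. The list also holds Il1r1, the IL-1 receptor, and Nfkbiz, a response gene of IL-1 and NF-kB, which are not of the gp130 pathway and are among the 8 called higher, with log2 fold changes of 1.45 and 1.19. Osmr, the oncostatin M receptor, rose from 1.77 to 2.83 CPM at 0 hours to between 10.5 and 20.5 CPM at 48 hours (log2 fold change 2.70 ± 0.28, SE; edgeR adjusted p = 3.67e-05). Socs3, the feedback inhibitor induced by STAT3, rose from a range of 9.83 to 12.7 CPM to one of 36.6 to 53.4 CPM (log2 fold change 1.97 ± 0.16, SE; edgeR adjusted p = 7.80e-06). Both were highest in replicate 1 of the 48-hour libraries, as were Serpina3n and Serpina3m. Lifr, the leukemia inhibitory factor receptor, was the gene called lower (log2 fold change -1.66 ± 0.20, SE; edgeR adjusted p = 1.16e-04), and the gp130 gene Il6st was not called (log2 fold change -0.24 ± 0.13, SE).

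Glucocorticoids are carried in plasma by the Serpina6 product and act on hepatocytes through their receptor. Of 12 genes of glucocorticoid carriage and response, 2 were called higher and 4 lower, beside 21.4% and 19.3% of all tested genes. Fkbp5, a chaperone induced by the receptor, rose from 9.03 to 11.6 CPM at 0 hours to between 43.4 and 51.8 CPM at 48 hours (log2 fold change 2.21 ± 0.13, SE; edgeR adjusted p = 7.33e-07). Tsc22d3 and Dusp1, also induced by the receptor and named here after their values were seen, were called lower, with log2 fold changes of -1.52 and -1.40 (edgeR adjusted p = 1.87e-04 and 8.75e-05). Per1, likewise named after its values were seen, was the other gene of the list called higher. Its log2 fold change was 1.17 ± 0.12 (SE; edgeR adjusted p = 3.11e-05). Hsd11b1, the enzyme that regenerates active glucocorticoid, fell from 292 to 336 CPM to between 48.1 and 57.8 CPM (log2 fold change -2.54 ± 0.13, SE; edgeR adjusted p = 2.36e-07). Tat and Pck1, classical target genes, were not called, with log2 fold changes of -0.37 and -0.18. Tat passed the threshold without replicate 1 of the 48-hour libraries, at a log2 fold change of -0.81.

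Growth hormone signals through STAT5 in liver. Of 7 genes of that pathway, 4 were called lower, beside 19.3% of all tested genes. The other 3 (Stat5a, Cish and Socs2) were not called. The lower call of Igf1 (edgeR adjusted p = 0.0452) was lost in 5 of 6 fits with a library left out, with the replicate block, with the filter of 1 count and with scaling by library size alone, and without replicate 1 of the 48-hour libraries 1 gene of the list was called higher. Ghr, the growth hormone receptor, fell from a mean of 686 to 252 CPM (log2 fold change -1.45 ± 0.15, SE; edgeR adjusted p = 3.88e-05), and Igfals, the acid-labile subunit that stabilizes IGF1 in plasma, had a log2 fold change of -1.33 ± 0.15 (SE; edgeR adjusted p = 5.73e-05). Of 11 liver-enriched transcription factors, 2 were called higher and 2 lower, near the shares of 21.4% and 19.3% over all tested genes. The lower calls numbered 1 without replicate 1 of the 0-hour libraries and 4 without replicate 2 of that time point. Hnf4a was at 747 to 865 CPM at 0 hours and 889 to 1023 CPM at 48 hours and was not called (log2 fold change 0.23 ± 0.14, SE), although it passed the threshold with scaling by library size alone (edgeR adjusted p = 0.0315), whereas Cebpa fell from a mean of 530 to 270 CPM (log2 fold change -0.97 ± 0.21, SE; edgeR adjusted p = 0.00449). Of 19 genes for secretion, quality control in the endoplasmic reticulum and clearance of serpins, 1 was called higher and 5 lower, beside the same 21.4% and 19.3%. Sel1l and Syvn1, which form the ubiquitin ligase that clears misfolded proteins, fell with log2 fold changes of -0.84 ± 0.13 and -0.83 ± 0.15 (SE; edgeR adjusted p = 6.57e-04 and 0.00138). The higher call was lost without replicate 1 or 2 of either time point, and higher calls numbered 2 with DESeq2 and 5 with scaling by library size alone. Calr (calreticulin) was not called. Lrp1, the receptor that takes up serpin-protease complexes, was not called either (log2 fold change -0.37 ± 0.15, SE; edgeR adjusted p = 0.0748), but passed the threshold in 4 of 9 alternative fits on all libraries, with an adjusted p of 0.00865 in DESeq2.

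**Figure D4:**
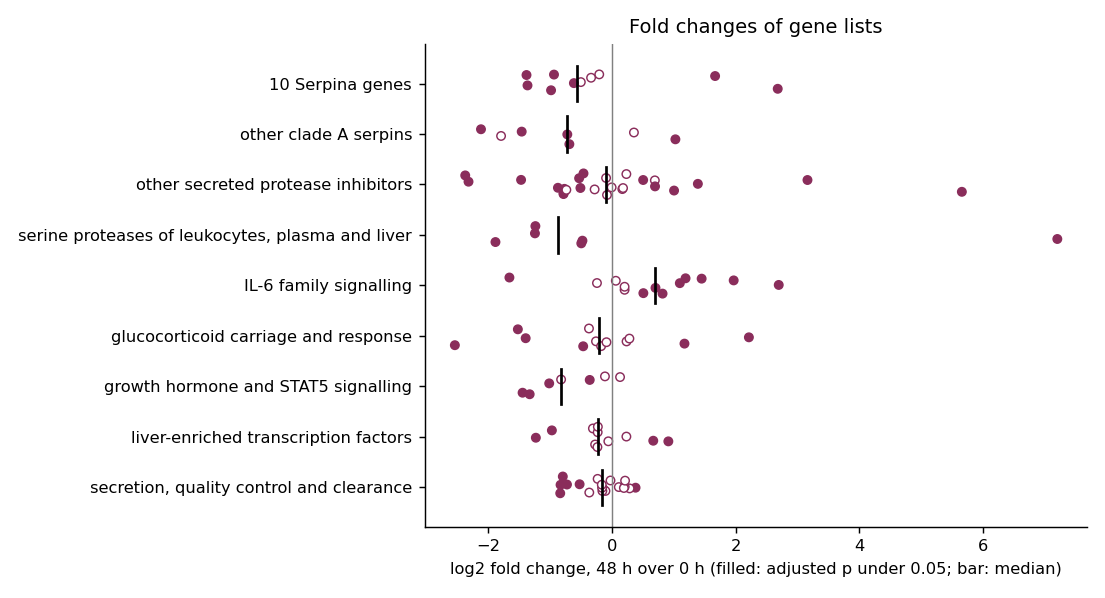
Log2 fold changes from 0 to 48 hours after PHx of the tested genes in each list, filled where the adjusted p was under 0.05, with a bar at each list's median and vertical jitter only to separate points. The 10 Serpina genes have a median of -0.56, the 7 genes of growth hormone signaling one of -0.82 and the 13 genes of IL-6 family signaling one of 0.70.

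Other cell types could add RNA to a hepatocyte preparation. The summed level of 8 endothelial markers was 213 to 334 CPM at 0 hours and 158 to 174 CPM at 48 hours, and all 8 were called lower. Of all tested genes 19.3% were called lower and 21.4% higher. For 9 stellate cell and fibroblast markers the ranges were 64.9 to 106 and 57.4 to 69.9 CPM, with 2 called higher and 1 lower of 8 tested. For 9 Kupffer cell markers they were 62.8 to 95.7 and 96.2 to 119 CPM, with 2 called higher. For 6 cholangiocyte markers they were 9.15 to 20.7 and 16.3 to 26.0 CPM, and of the 2 that were tested 1 was called higher. Of 6 lymphocyte markers none passed the count filter, and Cd3d was at 0 in every library. The endothelial sum was above the levels of Serpina6 and Serpina3c in all 6 libraries and above that of Serpina3m in every 0-hour library. The part of these cell types in the changes of the 10 genes was not tested.

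The genes whose pattern over the 6 libraries was most like the Serpina1 sum were Zfyve1, Bace1, Marf1 and Plxna2, with a Pearson r of 0.991 to 0.992 in log2 CPM among 7555 genes compared. Their log2 fold changes were -0.73, -0.33, -0.38 and -1.14. Over the same libraries the Serpina1 genes themselves had an r with the sum of 0.833 (Serpina1c) to 0.964 (Serpina1e). Most like the Serpina3 sum were Pygo2, Afdn, Ptpn3 and Pacsin3, with an r of 0.971 to 0.985, and none of them was called. The points are 6 libraries in 2 time points that share their scaling, and these values are a description of likeness only.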

How the data were processed

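Bulk RNA-Seq of isolated hepatocytes was analysed for 3 libraries per time point, assigned from the sample labels. The authors deposited raw read counts per gene for each library, with no normalization. The submitters' processing notes name FastQC 0.11.5, Trim Galore 0.6.4, STAR 2.6, HTSeq 0.12.4 and DESeq2 on mm10. The counting mode, strand setting and read length are not given in the sources used here. All 55450 gene identifiers matched GENCODE M21, from which names, coordinates and union exon lengths were taken. Lines that name no gene were left out. Reads on no gene made up 24.3% to 32.7% of a file and ambiguous reads 4.27% to 5.29%. A floor of 3 counts was worth 0.0825 to 0.0955 CPM, depending on the library. Reads carry no molecular identifiers, so this floor covers counting error only.

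Time points were compared with edgeR 4.0.16 in R 4.3.3 (TMM, glmQLFit and glmQLFTest) over every gene that reached 10 counts in 3 or more libraries, without a replicate block. SEs of log2 fold changes were derived from the quasi-likelihood F statistic, as the absolute change over its root. Paralog sums were taken on TMM-normalized CPM and have no p. Ratios between paralogs used 0.5 added counts and exact permutation tests. Coding sequences were rebuilt from the GENCODE annotation and aligned with MAFFT 7.526. Promoter windows came from RefSeq (GRCm38.p6). Only the main edgeR fit was first run on simulated counts, in which few genes changed and as many were raised as lowered. That setting cannot show how well TMM scales these data, in which far more genes were called. Alternatives were DESeq2 1.42.0, limma-voom (limma 3.58.1), other normalizations and filters, the replicate block and leaving out each library.

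The members, gene lists and tests were chosen with earlier results of these data known. Beside the 10 genes, the text names from each list the 2 genes with the highest mean CPM and the 2 with the largest called change (mean of at least 1 CPM, no overlap), leaving some out for length, and the 4 genes most like each paralog sum. Other genes named for overlap or as defining markers were chosen after their values were seen. A gene covered by this rule is not reported here.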

Additional observations from a re-analysis of the deposited data

How the results depend on the processing

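Across 9 alternative fits on all libraries and 6 with a library left out, 2 of the 10 genes were always called higher, and 4 to 6 were called lower. The calls that changed were those of Serpina1b and Serpina3k, given above. With scaling by library size alone, which moved the median log2 fold change of all genes by 0.20, 5308 genes were called higher and 2110 lower, against 3638 and 3288, so that 71.6% rather than 52.5% of calls were higher. The Serpina1 sum then had a log2 ratio of -0.56, and its other alternatives ran from -0.85 to -0.64. Under this scaling the log2 fold changes of Pck1, Calr, Pygo2 and Ptpn3 turned to 0.0138, 0.0943, 0.19 and 0.16. The Serpina3 sum had no stable direction, with log2 ratios of -0.0618 under upper quartile factors, -0.15 for medians of libraries and -0.22 to 0.14 with a library left out. Against the other paralogs summed instead of Serpina1a, the ratio of Serpina1b rose by 0.58, and that of Serpina3c, against the others instead of Serpina3k, fell by 0.55. The Serpina3c to Serpina3k difference ran from -0.28 to 0.46 with a library left out. Under upper quartile factors Afdn and Pacsin3 were at -0.0595 and -0.0460. With a library left out, the log2 fold changes of 5 genes crossed 0, running from -0.0117 to 0.78 for Serpina7, from -0.0669 to 0.0259 for Pygo2, from -0.13 to 0.11 for Afdn, from -0.15 to 0.0201 for Ptpn3 and from -0.0742 to 0.11 for Pacsin3. The cause of these changes was not tested.

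Same-numbered libraries came from different mice, and their deviations from the group means correlated at -0.14 to 0.03. Libraries of different number correlated at -0.0486 to 0.13, so these values showed no pairing by number. A processing batch shared by number was not tested. With the replicate block 3237 genes were called higher and 2884 lower, and the calls of the 10 genes were 2 higher and 5 lower as without it. With 3 libraries per time point, the precision is limited by the spread within 48 hours, which was widest for Serpina6, Serpina3n and Serpina3m among the 10 genes.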

Other observations

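Other inhibitors on the list of secreted protease inhibitors, named after their values were seen, moved in both directions. Of the inter-α-trypsin inhibitor heavy chain family, Itih2 rose from a mean of 1509 to 2443 CPM (log2 fold change 0.69, edgeR adjusted p = 0.0162), Itih3 from a mean of 957 to 2505 CPM (log2 fold change 1.39, edgeR adjusted p = 3.98e-04), and Itih4 from 2316 to 4640 CPM (adjusted p = 9.50e-04), while Itih1 fell from 844 to 490.1 CPM (-0.78, adjusted p = 0.00163). Among serpins of other clades, Serpinc1 (antithrombin) had a log2 fold change of -0.88, Serpind1 (heparin cofactor II) of -0.77 and Serpinf1 (pigment epithelium-derived factor) of -1.47 (edgeR adjusted p = 5.69e-04, 6.88e-04 and 1.48e-05). Serping1, the C1 inhibitor gene, was not called, with a log2 fold change of -0.0817.

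The pseudogene Serpina4-ps1, which lies between Serpina12 and Serpina3c in the cluster, was picked out after its values were seen. It had 8031, 6670 and 3619 counts at 0 hours and 131, 392 and 4350 counts at 48 hours. A single 48-hour library, replicate 3, was thus at the level of the 0-hour libraries, and the log2 fold change of -2.10 ± 0.94 (SE) did not pass the test (edgeR adjusted p = 0.0997).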
